A study of Homo sapiens with 6 samples.

Results

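The glypicans and syndecans are the 2 families of heparan sulfate proteoglycans that cells carry on their surface. They were selected by gene symbol and comprise 10 of the 46427 genes in the count table, the glypicans GPC1 to GPC6 and the syndecans SDC1 to SDC4. RNA-seq was performed on Hs578T, a triple-negative breast cancer cell line, after stable retroviral expression of control shRNA (shCTRL, n = 3) or of CCN3 shRNA #2 (shCCN3, n = 3), both from the pSUPER vector. The groups share the line and the vector and differ in the shRNA, which targets the secreted protein CCN3 in shCCN3 cells. The paper describes control and knockdown clones selected with puromycin. The comparison asks how the mRNA of these genes differed between shCCN3 and shCTRL cells. The knockdown rests on a single CCN3 shRNA. Loss of CCN3, other effects of this shRNA and differences between the selected cells therefore cannot be told apart. The submitters call the samples of a group independent biological replicates, but whether they came from separate transductions is not stated, so the p-values measure the spread between these samples.

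CCN3 mRNA was 103, 102 and 98.1 CPM in the shCTRL libraries and 47.4, 47.2 and 46.5 CPM in the shCCN3 libraries, where CPM is a gene's count scaled to a common library size with TMM factors. The log2 fold change of shCCN3 over shCTRL (log2FC) was -1.10 (adjusted p = 1.34e-06, edgeR's quasi-likelihood test). Library totals lay between 56159110 and 68393177 counts, so that 3 counts amount to between 0.0435 and 0.054 CPM, a limit that covers counting error only. VIM, a mesenchymal marker of this line, was at 7778 CPM in shCTRL and 7064 CPM in shCCN3 cells. Its shCCN3 libraries were lower without overlap, but VIM did not pass the test (adjusted p = 0.0961, edgeR's quasi-likelihood test). Of the other mesenchymal markers, CDH2 and SNAI2 rose with log2FCs of 0.87 and 0.92, while FN1 and ZEB1 did not pass the test. The epithelial markers CDH1, EPCAM and ESRP1 had at most 9, 3 and 7 counts in any library, and of the other epithelial markers KRT18 was higher and KRT8 and CLDN4 were lower in shCCN3 cells; the part of these markers in the results was not tested. Of the receptors that define triple-negative cells, ESR1 had at most 10 counts in any library, whereas PGR was near 2.86 CPM and ERBB2 near 77.9 CPM in shCTRL cells. The leukocyte gene CD3E and the endothelial gene CDH5 had 0 counts in all 6 libraries, and LYZ, VWF and PTPRC had at most 5, 7 and 13 counts in any library. PTPRC, a leukocyte marker, was higher without overlap in shCCN3 libraries but did not pass the test (adjusted p = 0.196, edgeR's quasi-likelihood test), and PECAM1, an endothelial marker, was detected at 3.57 CPM in shCTRL and 3.43 CPM in shCCN3 cells.

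Glypicans and syndecans are core proteins to which cells attach heparan sulfate, long sulfated sugar chains that bind growth factors, Wnt ligands and matrix proteins. Glypicans are held in the membrane by a glycosylphosphatidylinositol (GPI) lipid anchor, and syndecans by a transmembrane segment that ends in a short cytoplasmic tail. In breast cancer, SDC1 and GPC1 are the members best known for raised expression, and both families act as co-receptors for fibroblast growth factors, HB-EGF and Wnt proteins.

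The members of both families differed between shCCN3 and shCTRL cells in both directions. SDC1, SDC2 and GPC4 were higher in shCCN3 cells, by 1.94-fold, 1.74-fold and 1.81-fold. SDC3 was lower, with 1.93-fold more mRNA in shCTRL cells, and GPC1 and GPC2 were lower by smaller or less firmly measured amounts. SDC4 and GPC6 did not pass the test, and GPC3 and GPC5 were not detected. Of the 8 members that passed the filter on low counts, 6 had an adjusted p under 0.05, 3 higher and 3 lower, beside 33.4% of all 17419 genes tested (16.2% higher, 17.3% lower). The same 6 members were the ones whose libraries did not overlap between the groups, beside 46.3% of all genes tested. The members were chosen with earlier results of these data known, so neither count is a test of the families. The median log2 fold change of the 8 members was -0.03, against 0.01 over all genes tested. An exact permutation test over the 6 libraries gave each of the 6 members p = 0.1 (two-sided), the smallest that 3 libraries against 3 allow. In bulk RNA, a lower level in every cell and fewer cells that express a gene cannot be told apart.

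**Figure D1:**
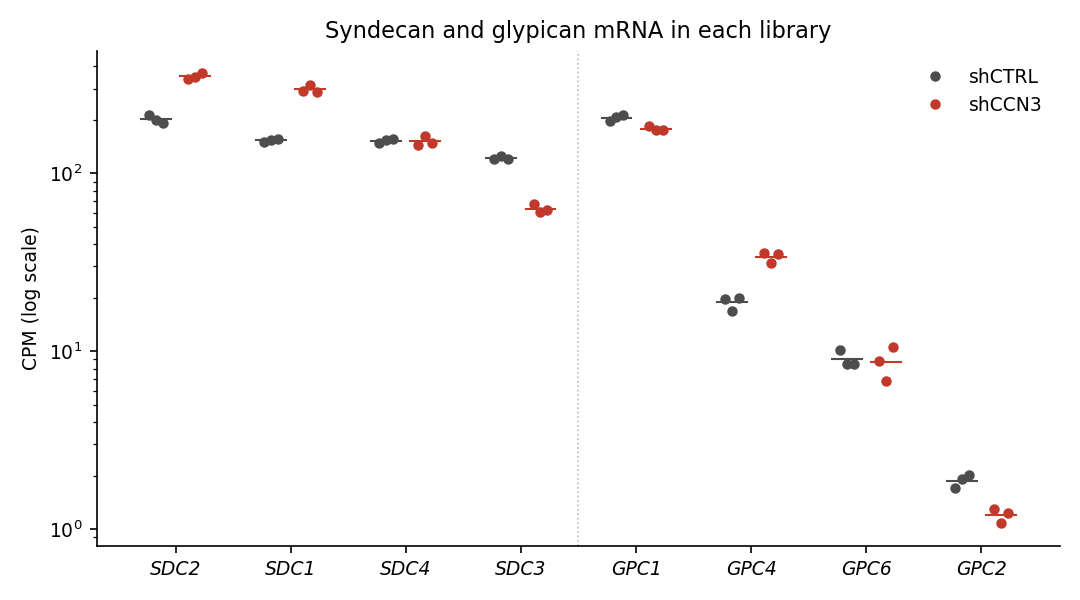
CPM on a log axis (y) for the 4 syndecans and the 4 detected glypicans (x), with 1 point per library and a line at the mean of the 3 libraries of a group. The shCCN3 libraries lie above all shCTRL libraries for SDC2, SDC1 and GPC4 and below them for SDC3, GPC1 and GPC2. For SDC4 and GPC6 the ranges of the groups overlap.

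SDC1 (Gene ID 6382), the syndecan typical of epithelial and plasma cells, is a minus-strand gene of chromosome 2 from 20200797 to 20225433 (GENCODE release 29, GRCh38). Its level was 150.3, 154 and 157 CPM in the shCTRL libraries and 291, 314 and 288 CPM in the shCCN3 libraries. All 3 shCCN3 libraries were thus well above all 3 shCTRL libraries. It had a log2FC of 0.95 (standard error, SE, 0.059, adjusted p = 4.16e-06, edgeR's quasi-likelihood test), the smallest adjusted p of the 8 members tested.

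SDC2 (Gene ID 6383), a syndecan typical of mesenchymal cells, is a plus-strand gene of chromosome 8 from 96493351 to 96611780. Its CPM was 213, 199.7 and 193 in shCTRL cells and 339.8, 349.9 and 366 in shCCN3 cells. The groups were far apart, and the log2FC was 0.80 (SE 0.062, adjusted p = 1.52e-05, same edgeR test).

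SDC3 (Gene ID 9672), best known from neural tissue and muscle precursors, is a minus-strand gene of chromosome 1 from 30869467 to 30908761. In contrast to SDC1 and SDC2, it was 121, 125 and 121 CPM in shCTRL libraries and 67.4, 60.9 and 62.0 CPM in shCCN3 libraries. No shCCN3 value came near the shCTRL values, with a log2FC of -0.95 (SE 0.061, adjusted p = 5.65e-06, same edgeR test).

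SDC4 (Gene ID 6385), a widely expressed syndecan of focal adhesions, is a minus-strand gene of chromosome 20 from 45325288 to 45348424. Its libraries overlapped, with 149, 153 and 156 CPM in shCTRL and 145, 162 and 148 CPM in shCCN3 cells. The log2FC was -0.01 with a 95% confidence interval from -0.15 to 0.13 (adjusted p = 0.902, same edgeR test), so a change as large as that of the other 3 syndecans lies outside the interval.

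Ratios of counts within a library do not depend on how libraries are scaled, and they were computed after the values had been seen, without a test. For each SDC3 count there were 1.24, 1.23 and 1.30 SDC1 counts in the shCTRL libraries and 4.32, 5.16 and 4.64 in the shCCN3 libraries. The ratio of SDC2 to SDC3 counts went from between 1.60 and 1.77 to between 5.04 and 5.90. SDC1 and SDC4 had nearly equal counts in shCTRL libraries, with ratios from 1.00 to 1.01, and SDC1 had 1.94 to 2.01 times as many in shCCN3 libraries.

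Among the glypicans, GPC4 (Gene ID 2239) was the member that rose. GPC4, a co-receptor for Wnt and fibroblast growth factor signals, is a minus-strand gene of chromosome X from 133300103 to 133415490. Its CPM was 19.8, 16.8 and 19.9 in shCTRL and 35.7, 31.3 and 35.0 in shCCN3 libraries. The groups did not overlap, and the log2FC was 0.85 (SE 0.089, adjusted p = 9.88e-05, same edgeR test). For each GPC1 count, there were 0.0809 to 0.0997 GPC4 counts in shCTRL libraries and 0.179 to 0.200 in shCCN3 libraries.

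GPC1 (Gene ID 2817), the glypican with the most counts, is a plus-strand gene of chromosome 2 from 240435671 to 240468078. It was at 198, 208 and 212 CPM in shCTRL libraries and at 184, 175 and 175 CPM in shCCN3 libraries. The difference was small but without overlap, with a log2FC of -0.21 (SE 0.057, adjusted p = 0.0172, same edgeR test). The call was lost without shCTRL replicate 2, without shCTRL replicate 3 and without shCCN3 replicate 3, where edgeR gave adjusted p-values of 0.0907, 0.0743 and 0.0577.

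GPC2 (Gene ID 221914), a glypican of the developing nervous system, is a minus-strand gene of chromosome 7 from 100169606 to 100177372. It had between 60 and 135 counts in a library, which came to 1.70, 1.91 and 2.01 CPM in shCTRL and 1.29, 1.08 and 1.24 CPM in shCCN3 cells. The log2FC was -0.64 (SE 0.169, adjusted p = 0.0174, same edgeR test). Without shCTRL replicate 2 or 3 the adjusted p was 0.0628 or 0.0622, while the call was kept without any of the other 4 libraries.

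GPC6 (Gene ID 10082), a glypican of mesenchymal tissue and growth plate, is a plus-strand gene of chromosome 13 from 93226842 to 94407401. Its CPM overlapped, with 10.2, 8.52 and 8.43 in shCTRL and 8.85, 6.84 and 10.6 in shCCN3 cells, and the log2FC was -0.04 with a 95% confidence interval from -0.39 to 0.31 (adjusted p = 0.861, same edgeR test). An antisense gene, AL354811.1, shares 476 bases with GPC6 exons, 7.36% of them, and since the use of strand in counting is not stated, its reads and those of GPC6 cannot be told apart. GPC3 (Gene ID 2719), the glypican of fetal liver and hepatocellular carcinoma, had 0 counts in all 6 libraries. GPC5 (Gene ID 2262), which neighbours GPC6 on chromosome 13, had 2 counts in shCCN3 replicate 2 and 0 in the other 5 libraries. Both genes are under the limit of 3 counts per library, and no fold change was computed.

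Per length of exon the order of the members differed between shCTRL and shCCN3 cells. Levels of different genes were compared as RPKM, the CPM divided by the kilobases of annotated exon. In shCTRL cells SDC4 was highest at 58.5 ± 1.38 RPKM, followed by SDC2 at 44.5 ± 2.25 RPKM and SDC1 at 42.7 ± 0.888 RPKM (SD, n = 3 each), whose libraries overlapped. GPC1 at 31.6 ± 1.10 RPKM and SDC3 at 17.3 ± 0.329 RPKM came next, and GPC4, GPC6 and GPC2 were at 3.80, 1.40 and 0.490 RPKM. In shCCN3 cells SDC1 at 82.8 ± 3.95 RPKM and SDC2 at 77.6 ± 2.90 RPKM (SD, n = 3 each) were above SDC4 at 58.0 ± 3.35 RPKM, again with overlap between SDC1 and SDC2. GPC1 was at 27.3 RPKM, SDC3 at 8.98 RPKM, GPC4 at 6.86 RPKM, GPC6 at 1.35 RPKM and GPC2 at 0.314 RPKM in shCCN3 cells. With the longest annotated transcript as the length, GPC1 was at 55.5 RPKM in shCTRL cells, between SDC4 at 58.5 RPKM and SDC2 at 53.8 RPKM and overlapping with both, since its exon union is much longer than its longest transcript.

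The summed syndecan level was higher in every shCCN3 library, while the glypican sums lay close together. The summed level of the 4 syndecans was 163 ± 0.116 RPKM in shCTRL and 227 ± 7.07 RPKM in shCCN3 cells, and that of the glypicans was 37.3 ± 0.992 RPKM and 35.8 ± 1.33 RPKM (SD, n = 3 each). The glypican sums overlapped in RPKM, but their summed CPM was 213.7 to 229.5 in shCCN3 and 229.8 to 242.3 in shCTRL libraries, without overlap. These sums are descriptions without a test. Within the syndecan pool, SDC1 went from 26.2% ± 0.537 to 36.4% ± 0.924 and SDC2 from 27.3% ± 1.39 to 34.1% ± 1.41 (SD, n = 3 each). SDC4, whose own level hardly moved, went from 35.9% to 25.5% of the pool, and SDC3 from 10.6% to 3.95%. In the glypican pool GPC4 went from 10.2% ± 0.934 to 19.1% ± 0.726 and GPC1 from 84.8% ± 1.23 to 76.2% ± 1.47 (SD, n = 3 each). With the longest transcript as the length, the share of GPC4 was 6.18% in shCTRL and 12.1% in shCCN3 cells.

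Of the 6 called members, 4 lay among genes that had moved in the same direction. Regions of some chromosomes differed as a whole between the groups, so each member was set beside the 24 tested genes nearest to it. GPC1 and the genes around it moved alike, with log2FCs of -0.21 for the gene and -0.22 for the median of its neighbours, of which 8 were lower and 0 were higher with an adjusted p under 0.05. Around GPC2 on chromosome 7, the neighbours had a median of -0.57 against -0.64 for the gene, with 15 lower and 0 higher, and the whole chromosome had a median of -0.43. SDC1 rose by more than the median of its surroundings, but these rose too, with a median of 0.44 and 11 of 24 higher. Its own log2FC of 0.95 lay under their upper quartile of 0.98. Relative to the neighbours, a measure added after the values were seen, the log2FC was 0.0019 for GPC1, -0.07 for GPC2 and 0.51 for SDC1. The part of the genomic region in these changes was not tested.

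SDC2, GPC4 and SDC3 stood further from the genes near them. The neighbours of SDC2 had a median log2FC of 0.09 and those of GPC4 one of 0.09, so that the genes exceeded them by 0.71 and 0.76. SDC3 lay among genes that were lower too, 13 of 24 with a median of -0.26, and relative to them its log2FC was -0.68. The medians around SDC4 and GPC6 were 0.07 and 0.01.

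**Figure D2:**
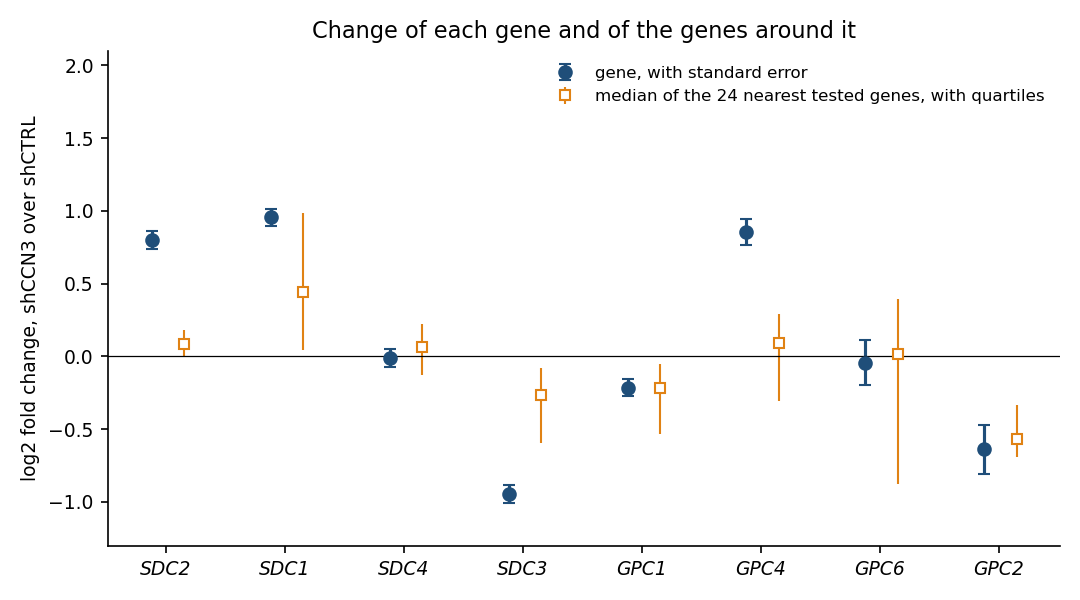
Log2 fold change of shCCN3 over shCTRL (y) for each member (x, filled circles with the standard error) and the median of its 24 nearest tested genes (open squares with the lower and upper quartile). GPC1 and GPC2 sit beside the median of their neighbours. SDC1 lies above the median but under the upper quartile of neighbours that rose too. SDC3 lies below the lower quartile of neighbours that fell too, and SDC2 and GPC4 lie apart from neighbours near 0.

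The 250 bases before the start of transcription are given for SDC1 and GPC4, which rose, and for SDC3, which fell (RefSeq, GRCh38.p14). Windows were found for 8 of the 10 members, and 4 motifs were searched on both strands: the E-box CACGTG, which MITF and MYC can bind, the TCF/LEF motif ATCAAAG, the TATA box TATAAA and the GC box GGGCGG. Capitals mark the matches, and overlapping matches run together. SDC1, at the most upstream of its 2 RefSeq starts, is on chr2:20225476-20225725, GPC4 on chrX:133415490-133415739 and SDC3 on chr1:30908759-30909008, each read 5′ to 3′ on the minus strand.
SDC1: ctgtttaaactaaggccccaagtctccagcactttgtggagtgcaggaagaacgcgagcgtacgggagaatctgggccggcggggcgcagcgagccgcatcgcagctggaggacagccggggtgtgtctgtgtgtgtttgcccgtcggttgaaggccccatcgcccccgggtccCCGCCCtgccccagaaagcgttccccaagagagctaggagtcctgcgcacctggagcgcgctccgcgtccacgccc
GPC4: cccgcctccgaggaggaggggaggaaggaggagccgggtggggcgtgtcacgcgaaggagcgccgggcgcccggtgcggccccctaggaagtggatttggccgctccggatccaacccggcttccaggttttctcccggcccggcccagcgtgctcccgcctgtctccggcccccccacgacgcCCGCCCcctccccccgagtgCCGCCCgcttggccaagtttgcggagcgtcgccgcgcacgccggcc
SDC3: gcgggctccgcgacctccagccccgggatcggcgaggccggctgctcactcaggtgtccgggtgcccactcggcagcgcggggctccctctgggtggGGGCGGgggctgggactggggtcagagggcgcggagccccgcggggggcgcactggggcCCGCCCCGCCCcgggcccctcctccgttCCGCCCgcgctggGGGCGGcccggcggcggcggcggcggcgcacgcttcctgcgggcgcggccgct
The windows hold 1, 2 and 5 GC boxes for SDC1, GPC4 and SDC3, and 42.6% of all 35116 promoter windows hold at least 1. None of the 3 holds the E-box, the TCF/LEF motif or the TATA box, which occur in 6.34%, 2.26% and 10.7% of all windows.

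The search for profiles like that of SDC1 covered genes with a mean of at least 1 CPM and with counts in all 6 libraries. Among these, the 3 whose profile over the 6 libraries was most like that of SDC1 were MTHFD1L, RPIA and LMO4. The likeness was measured as the root mean square difference of log2 CPM after centring each gene, over 6 libraries and 13603 genes, and came to 0.016, 0.042 and 0.042. MTHFD1L, a mitochondrial enzyme of folate metabolism, had a log2FC of 0.97, RPIA, an enzyme of the pentose phosphate pathway, one of 0.99, and LMO4, a LIM-only transcriptional cofactor, one of 0.91.

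Genes that build, modify or release heparan sulfate proteoglycans changed at many steps. Of 86 genes in 6 lists, 75 were tested and 48 had an adjusted p under 0.05, 18 higher and 30 lower, beside the 33.4% of all genes tested. The lists were chosen with earlier results of these data known, so this count is a description and not a test of the pathway. Without shCTRL replicate 2 or without shCCN3 replicate 1 the higher genes numbered 11. The median log2FC of the 75 genes was -0.19, against 0.01 over all genes tested.

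Chain assembly starts on a serine of the core protein, where xylosyltransferases place the first sugar of a linker, and EXT1 with EXT2 then extend the chain. Of the 13 tested genes of the linker and polymerization, 3 were higher and 7 were lower, with a median of -0.27. XYLT1, a xylosyltransferase, fell from 42.8 ± 3.50 to 22.3 ± 3.45 CPM (± SD of 3 libraries), a log2FC of -0.94 (adjusted p = 0.000257, edgeR's quasi-likelihood test). B3GAT3, which adds the last sugar of the linker, had a log2FC of -0.58 (adjusted p = 0.00312, same edgeR test). In the opposite direction, EXT1 rose from 245 ± 3.53 to 408 ± 4.10 CPM (± SD of 3 libraries), a log2FC of 0.74 (adjusted p = 8.72e-06, same edgeR test). Its partner EXT2 was at 176 and 181 CPM and did not pass the test (adjusted p = 0.612, same edgeR test). The neighbours of EXT1 had a median log2FC of 0.18. Those of XYLT1 and B3GAT3, which fell, had medians of 0.22 and -0.0021.

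The chain is then sulfated at several positions, which set what it binds. In this list of 21 genes, 17 were tested, 6 were higher and 4 were lower, with a median log2FC of 0.20. NDST4, an N-deacetylase and N-sulfotransferase, was 22.8, 20.6 and 20.6 CPM in shCTRL libraries and 2.57, 2.48 and 2.60 CPM in shCCN3 libraries. The groups were far apart, with 8.36-fold more NDST4 mRNA in shCTRL cells and a log2FC of -3.06 (SE 0.091, adjusted p = 6.97e-08, same edgeR test). The 24 tested genes nearest to NDST4 had a median log2FC of -0.0021. Its widely expressed relative NDST1 was at 172 CPM in shCTRL and 198 CPM in shCCN3 cells. The shCCN3 libraries were higher without overlap, but NDST1 did not pass the test (adjusted p = 0.0662, same edgeR test). HS3ST1, a 3-O-sulfotransferase known for the antithrombin-binding site of heparan sulfate, fell from 13.4 ± 0.452 to 5.48 ± 0.788 CPM (± SD of 3 libraries), with a log2FC of -1.29. HS6ST1, a 6-O-sulfotransferase, rose from 36.3 ± 0.0900 to 49.9 ± 0.748 CPM (± SD of 3 libraries), with a log2FC of 0.46.

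Outside the cell, the sulfatases SULF1 and SULF2 remove 6-O-sulfate groups from finished chains. SULF1 had 21, 16 and 0 counts in the shCTRL libraries and 423, 326 and 469 in the shCCN3 libraries, or 0.306, 0.255 and 0 CPM against 6.14, 5.87 and 7.33 CPM. The gene thus had few or no counts in shCTRL cells and many more in every shCCN3 library. Its log2FC of 5.10 (SE 0.502, adjusted p = 6.7e-05, same edgeR test) depends on how the library with 0 counts is treated and was 4.51 without shCTRL replicate 3, 5.68 without shCTRL replicate 1 and 6.26 with limma-voom. Its neighbours had a median of 0.32. SULF2 had at most 1 count in any library and was not tested. Of the 9 tested genes of editing and degradation, SULF1 was the one that was higher and 5 were lower. The latter include the lysosomal enzymes NAGLU, with a log2FC of -0.45, and GUSB, with one of -0.40 on chromosome 7, where its neighbours had a median of -0.58.

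Core proteins leave the cell surface by protease cleavage or, for glypicans, by cleavage of the GPI anchor. Of the 10 tested genes of this list, 2 were higher and 6 were lower. The lower genes include TIMP3, an inhibitor of metalloproteinases rather than a releasing enzyme, with a log2FC of -0.69 (adjusted p = 1.45e-05, same edgeR test). MMP2, a matrix metalloproteinase, fell from 527 ± 19.7 to 189 ± 5.92 CPM (± SD of 3 libraries), a log2FC of -1.48 (adjusted p = 3.25e-07, same edgeR test). NOTUM, a secreted hydrolase that acts on Wnt proteins and was first described as cleaving glypican anchors, was near 1.83 CPM in shCTRL and 0.952 CPM in shCCN3 cells, with a log2FC of -0.94. GPLD1, a GPI-specific phospholipase, was 1.78, 1.15 and 0.983 CPM in shCTRL and 3.25, 1.85 and 2.75 CPM in shCCN3 libraries, with a log2FC of 1.01 (adjusted p = 0.0187, same edgeR test). This call was lost in 4 of the 6 fits that left out a library, without shCTRL replicate 2 or 3 and without shCCN3 replicate 1 or 3, where edgeR gave adjusted p-values between 0.0506 and 0.0764. The neighbours of GPLD1 on chromosome 6 had a median log2FC of 0.44. The main ectodomain proteases ADAM10 and ADAM17 did not pass the test, with log2FCs of 0.12 and 0.02.

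The cytoplasmic tails of syndecans bind scaffold and signalling proteins. In this list 15 genes were tested, 4 were higher and 4 were lower, with a median of -0.11. The 3 called genes with the largest change and at least 1 CPM all rose: EZR, the membrane-to-actin linker ezrin, by 0.68, CASK, a scaffold kinase, by 0.51, and SDCBP, which encodes syntenin, by 0.47 on the log2 scale. SYNPO, among the 4 lower genes, fell by nearly as much as SDCBP rose, with a log2FC of -0.46 (adjusted p = 0.00377, same edgeR test). SDCBP was at 293 ± 12.6 CPM in shCTRL and 406 ± 27.5 CPM in shCCN3 cells (± SD of 3 libraries, adjusted p = 0.000642, same edgeR test). EZR lies on chromosome 6, where its neighbours had a median of 0.43, and the neighbours of SDCBP on chromosome 8 had one of 0.21.

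Of 11 other genes whose proteins carry heparan sulfate or related chains, all were tested, 2 were higher and 4 were lower. COL18A1, a basement membrane collagen with heparan sulfate chains, rose from 80.6 ± 6.66 to 160.3 ± 7.11 CPM (± SD of 3 libraries), a log2FC of 0.99 (adjusted p = 1.26e-05, same edgeR test), among neighbours on chromosome 21 with a median of 0.36. TGFBR3, which encodes betaglycan, and NRP1, a co-receptor for VEGF and semaphorins, fell with log2FCs of -0.76 and -0.64. The basement membrane proteoglycan HSPG2 did not pass the test, with a log2FC of -0.20 (adjusted p = 0.246, same edgeR test).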

How the data were processed

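Total RNA of 3 shCTRL and 3 shCCN3 samples of Hs578T cells was made into stranded poly(A) libraries and sequenced on Illumina NovaSeq. The authors deposited raw read counts for 46427 genes by NCBI Gene ID, not normalized. The submitters' processing notes name bcl2fastq 2.20.0, Trimmomatic, HISAT2 2.1.0, StringTie 2.1.3d, DESeq2 and GRCh38; the annotation and the use of strand in counting are not given in the sources used here.

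Counts were filtered with filterByExpr by group, which left 17419 genes, scaled with TMM factors and tested with edgeR 4.0.16 in R 4.3.3 (quasi-likelihood test, no block, Benjamini-Hochberg adjustment over all genes tested, threshold 0.05). CPM were computed from the counts on tested genes after TMM scaling. Standard errors were derived from the F statistic. Exon lengths and coordinates came from GENCODE release 29, gene order from the RefSeq gene table (98.5% of genes tested), and promoter windows from RefSeq. Replicates of a group differed by more than counting noise (chi-square per degree of freedom from 7.04 to 45.5). Alternatives were other scalings and filters, DESeq2 1.42.0, limma-voom (limma 3.58.1), a replicate block and leaving out each library. The fits were tested on simulated data. The members and lists were chosen with earlier results of these data known; position-adjusted changes, count ratios and family sums were added after the members' values were seen. The genes named are the 10 members, CCN3, the 3 called genes with the largest change and at least 1 CPM in each list, and the 3 nearest profiles. EXT2, NDST1, SULF2, TIMP3, ADAM10, ADAM17, SYNPO and HSPG2 were added after their values were seen.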

Additional observations from a re-analysis of the deposited data

How the results depend on the processing

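SDC1, SDC2, SDC3 and GPC4 kept their direction and an adjusted p under 0.05 in all 13 alternative fits, with adjusted p-values of at most 0.000944. The number of members called was 6 in 9 of the 13 fits, 5 with the replicate block, and 4 to 6 when a library was left out. The number of members called lower, 3, ranged from 1 to 3 when a library was left out, because GPC1 and GPC2 lost their calls. GPC1 also had an adjusted p of 0.0802 with the replicate block. Its log2 fold change relative to the 24 nearest tested genes was 0.0019, an alternative chosen after seeing the data. GPC6 and SDC4, which were not called, changed sign when a library was left out, with log2 fold changes from -0.20 to 0.11 and from -0.057 to 0.0197. The number of pathway genes called lay between 33 and 56 over the alternatives, and the number higher between 11 and 24 when a library was left out. Of the 18 pathway genes named by rule, 17 were called in every alternative that tested them, GPLD1 being the exception.

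No pairing of the samples by replicate number was seen, as deviations of same-numbered samples correlated at 0.149, -0.0726 and -0.259 across genes. With 3 samples centred within each group, these correlations cannot show that there is no pairing. With the replicate block, 4887 genes in all and 39 pathway genes were called, against 5825 and 48 without it. When a library is left out of a group, 4181 to 7229 genes are called. Levels per length depend on the annotated length: with the longest transcript, 10 of 17 levels moved by more than the spread between replicates. The ratio of GPC6 to GPC5 and of GPC4 to GPC3 was not computed, because GPC5 and GPC3 have 0 counts in most or all libraries. At this depth, GPC2 with 60 counts in its lowest library is the one of the 8 tested members limited most by counting error.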
